A study of Mus musculus with 27 samples.

Results

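The cytosolic ribosomal protein genes are the genes whose protein products, together with ribosomal RNA, build the ribosomes of the cytoplasm. They were chosen by symbol among protein-coding genes: Rpl or Rps followed by digits with an optional a, x, l or p ending, together with Rplp0, Rplp1, Rplp2, Rpsa and Fau, without pseudogene symbols and without the Rps6k kinases. The rule found 81 of the 37991 genes listed in each file, of which 48 had Rpl or Rplp symbols, 32 had Rps or Rpsa symbols and the last was Fau. They lay on 20 chromosomes, with 14 on chromosome 7 and 4 on chromosome X.

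The study followed gene expression by RNA sequencing while calvarial cells of mice became osteoblasts, in order to describe the temporal pattern of genes in the osteoblast lineage. All cells were taken from the calvaria of C57BL/6J-Col3.6 CFP pups that were 5 to 9 days old and that carry cyan fluorescent protein under Col3.6, a fragment of the type I collagen promoter that is active in, but not restricted to, bone-forming cells. Cells sorted for that fluorescence were returned to culture in medium with ascorbic acid and beta-glycerol phosphate, which every group received, and RNA was taken on days 2, 4, 6, 8, 10, 12, 14, 16 and 18. The only planned difference between the groups was therefore time, which cannot be told apart from the library of each day. No untreated culture was analysed here. The sort was made before differentiation and does not say which cells were present at later days. Each day had 3 files from separate sequencing lanes that carried a single barcode, so that they were counted as 1 sample per day and an SD over them covers sequencing and read assignment only. The study's methods describe replicate samples at each time point, and whether the files of a day came from separate cultures cannot be told from the files. The 9 summed libraries held between 22470195 counts (day 10) and 62009157 counts (day 12).

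Ribosomal proteins of the large and the small subunit are needed in fixed proportions, and their messenger RNAs are among the most abundant of most cells. In mammals these messenger RNAs begin with a stretch of pyrimidines, the 5′ terminal oligopyrimidine (TOP) tract, through which growth signalling by mTOR raises or lowers their translation together. Their genes have also left many processed pseudogenes across the mouse genome, whose sequence can be nearly that of the parent transcript, and several members serve as reference genes in quantitative PCR of bone cells.

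RefSeq start sites (build GRCm38.p6) were found for 61 of the 81 genes, in 73 windows because some genes have several starts. The windows below run from 14 bases before to 15 bases after the annotated start, so that the start is the base after the first 14. Capitals mark the longest unbroken C or T run that covers the start or begins within 5 bases of it, and the windows are shown because the members share this feature and differ in it. The genes shown are some of those described further below. Windows not shown include those of Rpl34 (runs of 20 and 6 bases), Rps24 (9 and 2 bases) and Rps12, Rps3 and Rpl23 (2 bases each). Of the genes shown, Rpl10a and Rps27l have 2 annotated starts each.
Rpl13a, chr7:45128730-45128759, minus strand: aaaccctgcgacaagaCCTCCTCCTTTCCC
Rps18, chr17:33955650-33955679, minus strand: acgtcacttccgCTCTCTCTTCCacaggag
Fau, chr19:6057933-6057962, plus strand: gcgcgcccccaCTTCTTCCTCTTTCTTgac
Rplp2, chr7:141447637-141447666, plus strand: gcgtcagcgTCTTCCTTTCgccgccggacg
Rps9, chr7:3704027-3704056, plus strand: ccgccttgTCTCTCTTTgtctcgggcctga
Rps27, chr3:90213633-90213662, minus strand: tttccgctttcgCTCCTTTCCggcggtgac
Rps27l, chr9:66946072-66946101, plus strand: cactcctccccgccgCCTCTatcccggaag
Rps27l, chr9:66946399-66946428, plus strand: ccatgggcttcagggTCactaacgggcctc
Rplp0, chr5:115559453-115559482, plus strand: tcttcgggtttcgaggaCCgcctggttctc
Rpl10, chrX:74270802-74270831, plus strand: ttgttacagTggaagataggccgcctatat
Rpl10a, chr17:28328457-28328486, plus strand: tggcgcccccccagcggCCgcaaactgcag
Rpl10a, chr17:28328551-28328580, plus strand: ctctatttgagCgcatgcgcaaagcgctct

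A run of at least 8 pyrimidines that covered the start, or began within 5 bases of it, was present in 28.8% of the members' windows and in 6.31% of all 32851 windows of the table. With a minimum of 5 bases the shares were 42.5% and 23.6%. A run of at least 8 bases anywhere from 30 bases before to 50 bases after the start was present in 69.9% of the members' windows and in 29% of all windows. In the whole window of 250 bases before to 50 bases after the start, CGGAAG, the core recognised by ETS factors such as GABP, was present on either strand in 60.3% of the members' windows against 16.9% of all windows. GGGCGG, the Sp1 motif, was present in 58.9% against 35.7%, and AAGATGG, the core of the YY1 motif, in 16.4% against 6.34%. TATAAA was present in 8.22% against 13.6%, and CACGTG in 11% against 7.15%. These matches describe letters near annotated starts and not binding or use of the site.

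Because of the pseudogenes, the members were split by whether the deposited estimated counts were whole numbers (within 0.005) in all 27 files. Whole counts, which RSEM gives where no read is divided, were found for 14 members, among them Rpl3l, Rpl4, Rpl8, Rpl10l, Rpl23, Rpl32, Rpl39l, Rps3, Rps9, Rps20, Rps21, Rps27l and Rps29. The other 67 members had reads that RSEM divided between them and other entries. In all, 73 members had at least 1 entry elsewhere with a pseudogene biotype, a -ps symbol or a Gm symbol that shared at least 20 stretches of 50 identical bases with the member's coding transcripts. These entries numbered 558, with up to 48 for a single member, Rpl21. Of the 14 members with whole counts, 6 also had such an entry, so that whole counts do not mean that no copy matches. The member nevertheless received most of the counts of itself and its matching entries in nearly all cases, with a median share of 99.2%.

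For a few members the division was large, and there a read of 50 bases matches both copies over nearly the whole entry. All 659 stretches of 50 bases in Rpl10a-ps1, a pseudogene entry on chromosome 1, were also present in Rpl10a. The first 30 coding bases held by both, in a single exon and in build NCBIM37, are given for Rpl10a and for Rpl5 with its copy Gm15500, in which 969 of 970 stretches were shared.
Rpl10a, chr17:28465756-28465785, plus strand: cagcaaagtctcacgcgacaccctgtacga
Rpl10a-ps1, chr1:65041144-65041173, minus strand: cagcaaagtctcacgcgacaccctgtacga
Rpl5, chr5:108330889-108330918, plus strand: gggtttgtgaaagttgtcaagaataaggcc
Gm15500, chr7:121849645-121849674, minus strand: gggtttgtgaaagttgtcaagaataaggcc

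On day 2, Rpl10a received 16177 counts and Rpl10a-ps1 14451, while Rpl5 received 4238 and Gm15500 25995. Rpl5, which carries 5S ribosomal RNA into the large subunit, was thus among the lowest members by level (63.5 TPM over the 9 days) with 12.9% of the counts of itself and its matching entries. Between 39.7% and 52.3% of such joint counts were given to Rpl15, Rps6, Rpl27a and Rpl31. Levels of these members are therefore uncertain, and they are kept apart from the members with whole counts below.

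Levels are given as TPM, transcript abundances scaled to the length of each gene and to its library, after division by the 75th percentile of the values above 0 of each file, which places genes of different length on a common scale. Of the 81 members, 79 passed the filter on low counts (12 with whole counts and all 67 that share reads). Rpl10l, an intronless copy of Rpl10 known from testis, had 0 counts in all files, and Rpl3l, the form of Rpl3 known from skeletal and heart muscle, had 4 counts in all, so that neither was tested. Among the 79, the mean level over the 9 days had a median of 630 TPM with quartiles of 414 and 904 TPM, and the medians of the large subunit (628 TPM) and of the small subunit (657 TPM) were close to each other. There were 15 members at or above 1000 TPM.

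Among the members with whole counts, Rpl32 (1507 ± 285 TPM, SD over 9 days) and Rpl4 (1374 ± 182 TPM) were highest. Rps29 (953 ± 167 TPM), Rps9 (721 ± 91.3 TPM) and Rps20 (579 ± 134 TPM) followed. Next were Rpl23 (465 ± 121 TPM), Rps21 (428 ± 94.2 TPM), Rpl8 (361 ± 96.5 TPM), Rps3 (225 ± 64.2 TPM) and Rps27l (213 ± 113 TPM). Of the members named here, neighbours in this order differed by less than the larger of their SDs over days, except Rpl4 from Rps29, Rps29 from Rps9, Rps9 from Rps20 and Rpl8 from Rps3. Rpl39l, the paralog of Rpl39 known from testis, was far below them at 13.8 ± 2.86 TPM. Among the members that share reads, Rpl10 (2837 ± 218 TPM), Rps27 (2605 ± 302 TPM) and Rps24 (1713 ± 412 TPM) were highest. The level of Rps27 rests on an effective length of 67.0 bases, the shortest of the tested members. That level is therefore less certain than the levels of longer members. The same applies, to a lesser degree, to Rps29, Rps21, Rps24, Rps27l and Rpl32, whose effective lengths also lay below the median of the tested members.

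As a family, the members lost much of their share of the libraries between the first and the last day. In the order of the 9 days, they held 2.11%, 1.70%, 1.88%, 1.71%, 1.52%, 1.40%, 1.26%, 1.39% and 1.06% of all counts. At this depth the 95% Wilson interval of the share was 2.109% to 2.118% on day 2 and 1.059% to 1.065% on day 18, which covers counting error only. The share of TPM moved from 7.48% to 3.82%. Mitochondrial ribosomal RNA took between 21.4% and 25.7% of the counts, and without it the members' share of counts was 2.69% on day 2 and 1.41% on day 18. In bulk RNA fewer cells of a type and less of the RNA per cell cannot be told apart, and a share does not give the amount of RNA in a cell.

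The test of this course was a straight line in day over the 9 summed libraries, fitted to all 15659 genes that passed the filter with the quasi-likelihood test of edgeR and p-values adjusted over all of them after Benjamini and Hochberg. Changes are fitted log2 changes in normalised counts from day 2 to day 18, with 1 SE. With 1 sample per day, the spread that the test uses is the scatter around the line. Of the 79 members, 71 fell, against 26.1% of all genes, and 1 rose, against 28.3% of all genes; in either direction 54.3% of all genes were called. The remaining 7 (Rpl3, Rpl10, Rpl17, Rpl31, Rpl39, Rpl39l and Rps27) did not pass. The median change of the members was −0.85, a fall of 1.80-fold, against 0.05 over all genes tested, and the quartiles of the members were −1.01 and −0.66. All values of days 14, 16 and 18 lay below all values of days 2, 4 and 6 in 67 members, against 29.6% of all genes.

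**Figure D1:**
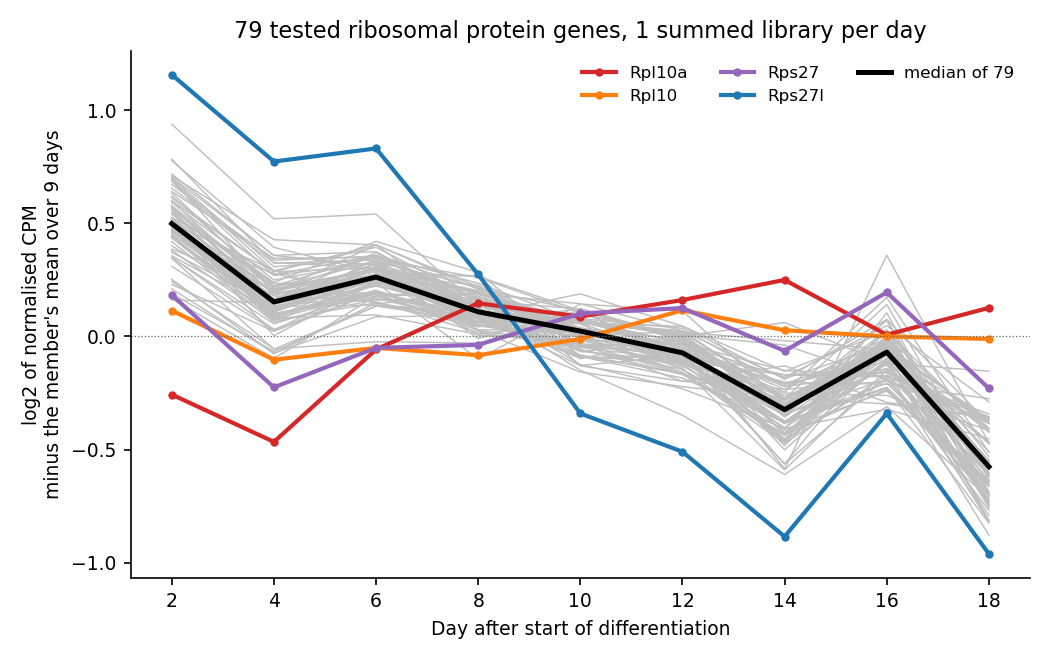
Course of the 79 tested members, as log2 of the normalised counts (CPM) minus the member's own mean over 9 days (y axis), against day (x axis). Grey lines are single members, the black line is their median, which moved from 0.50 on day 2 to −0.58 on day 18, and 4 members that differ from it are coloured.

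The fall was not an even slope, and nearly all members shared its steps. In the same order, the median deviation from each member's mean was 0.50, 0.15, 0.26, 0.11, 0.02, −0.07, −0.32, −0.07 and −0.58 on the log2 scale. From day 2 to day 4 all 79 were lower, although 52.8% of all genes were higher. From day 14 to day 16, in turn, 68 of 79 were higher (51.6% of all genes), and from day 16 to day 18 78 of 79 were lower, while 48.7% of all genes were higher. Each step compares 2 libraries, so that it has no test. In TPM, 69 members were highest on day 2 (16.8% of all genes) and 75 were lowest on day 18 (15.7% of all genes). A total of 68 followed the median course with a Pearson correlation above 0.9 over the 9 libraries, which they share. That course is the median of these same 79 members, and the share of all genes above 0.9 was not counted. The spline fit, in which a course may bend, called 70 of the 79 (57.5% of all genes).

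Members are short, with a median effective length of 407 bases against 2066 bases over all genes tested. The 1246 other tested genes with an effective length under 600 bases had a median change of −0.11, and 23.3% of them fell. Their median deviation was 0.04, 0.03, 0.17, 0.06, −0.04, 0.01, −0.07, 0.10 and −0.13 over the 9 days, so that they too were higher on days 6 and 16 than on the day before each, while days 2 and 4 hardly differed. Of the 61 members in the same length class, 55 fell, with a median change of −0.86.

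Large and small subunits moved alike. In the large subunit 39 of 46 tested members fell and 1 rose, with a median change of −0.84, and in the small subunit 32 of 33 fell, with a median of −0.88. Members with whole counts, in which no read was divided, gave 11 falls among 12, with a median of −0.90, and the members that share reads gave 60 falls and 1 rise among 67, with a median of −0.84. Members with a pyrimidine run of at least 8 bases at or near an annotated start had 20 falls among 21 and a median of −0.91. Those with windows but no such run had 33 falls and 1 rise among 38 and a median of −0.83. No test was run between these subsets.

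**Figure D2:**
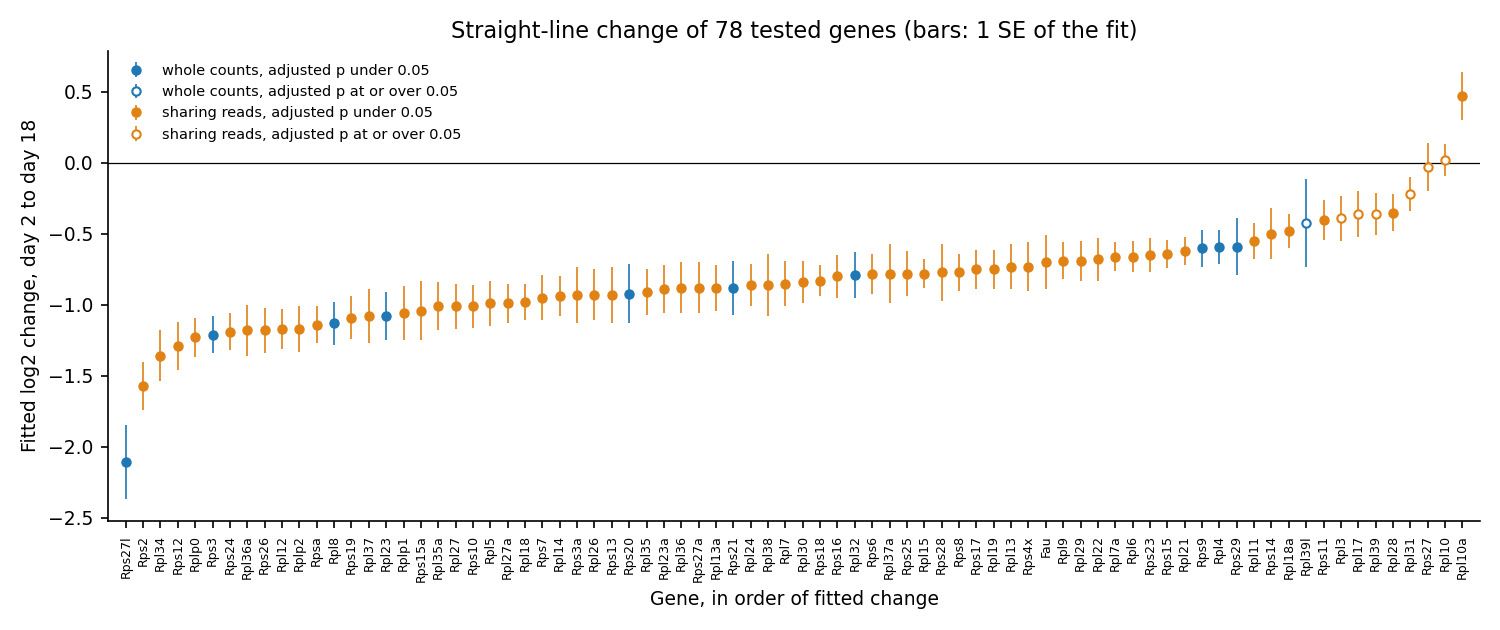
Fitted log2 change from day 2 to day 18 with 1 SE (y axis) for 78 of the 79 tested genes in order of change (x axis). Filled points passed an adjusted p of 0.05. Blue points have whole counts and lie from −2.11 (Rps27l) to −0.42 (Rpl39l). Orange points share reads and lie from −1.57 (Rps2) to 0.47 (Rpl10a).

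The stalk of the large subunit, which recruits the elongation factors, is formed by the products of Rplp0, Rplp1 and Rplp2. Rplp0 was at 620, 499, 470, 376, 356, 369, 299, 337 and 239 TPM on the 9 days in order. It lost level at each step but those to days 12 and 16, and its change was −1.23 ± 0.14 (adjusted p = 8.76e-05). Rplp1 moved from 1886 to 812 TPM (−1.06 ± 0.19, adjusted p = 0.000877) and Rplp2 from 1225 to 478 TPM (−1.17 ± 0.16, adjusted p = 0.000255).

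Rplp0, Rpl13a, Rps18 and Rpl32 are in wide use as reference genes for quantitative PCR, and all 4 fell. Rpl13a was at 720, 671, 736, 704, 610, 662, 509, 623 and 402 TPM on the 9 days, with a change of −0.88 ± 0.16 (adjusted p = 0.000967). Rps18 was at 1080, 863, 1001, 851, 761, 779, 687, 694 and 605 TPM (−0.83 ± 0.11, adjusted p = 0.000215). Rpl32, which has whole counts, was at 1980, 1563, 1753, 1564, 1432, 1558, 1244, 1494 and 978 TPM (−0.79 ± 0.16, adjusted p = 0.00231). Each of the 4 had its lowest level on day 18, and days 14 to 18 did not overlap days 2 to 6 in any of them. Their changes kept their sign and passed the test under all 22 alternatives.

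**Figure D3:**
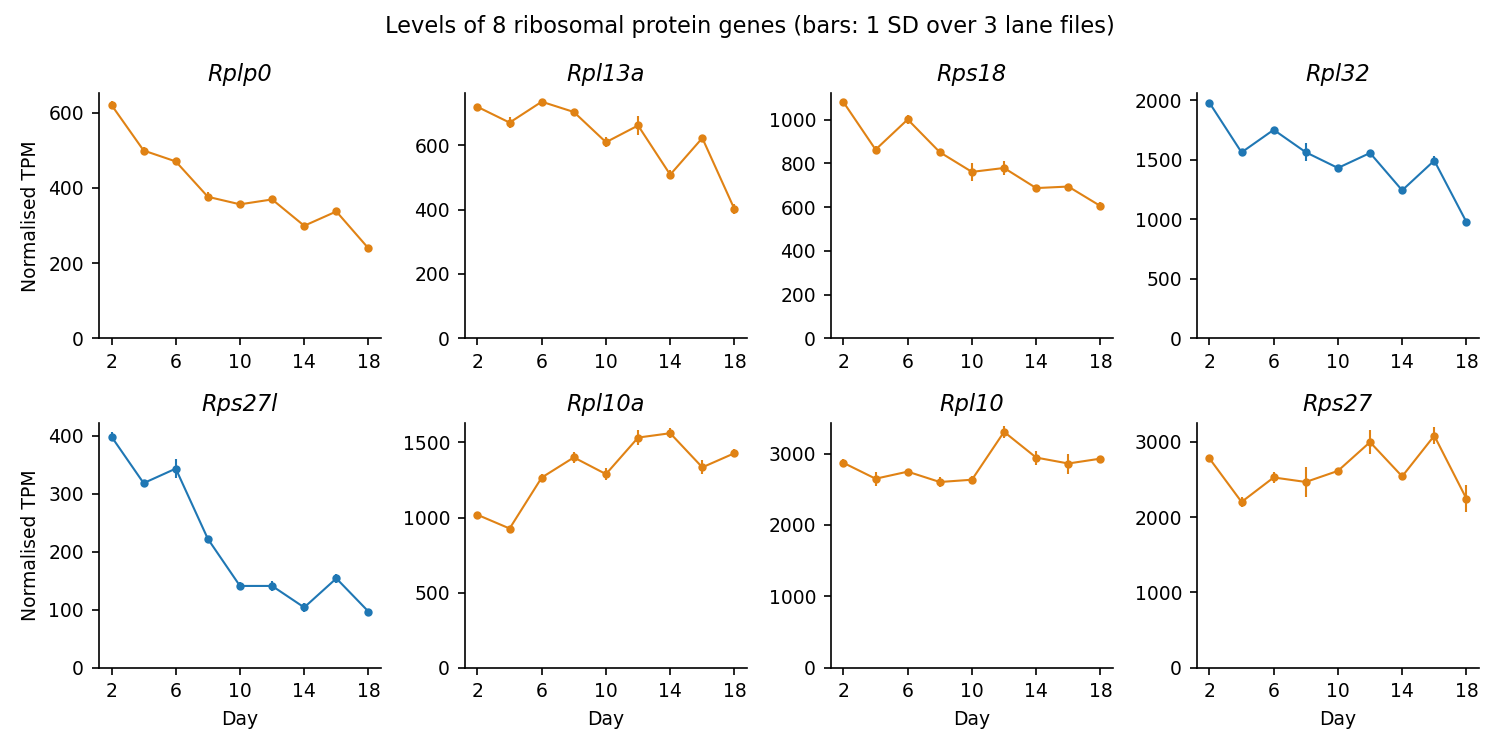
Normalised TPM (y axis, from 0) against day (x axis) for the 4 reference genes and for Rps27l, Rpl10a, Rpl10 and Rps27. Points are means of 3 lane files with 1 SD over them (blue: whole counts; orange: sharing reads); the reference genes and Rps27l end at their lowest level, whereas Rpl10a ends above its day 2 level.

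Fau and Rps27a are made as fusions with ubiquitin or a protein like it. Fau, which encodes a ubiquitin-like protein joined to the small-subunit protein eS30, was at 362, 269, 322, 248, 282, 310, 224, 269 and 188 TPM, with a change of −0.70 ± 0.19 (adjusted p = 0.0104). Without day 2 its adjusted p was 0.0717 and without day 18 it was 0.0551. Rps27a, which encodes ubiquitin joined to eS31, moved from 155 to 77.4 TPM (−0.88 ± 0.18, adjusted p = 0.00238). Rpsa, a small-subunit protein also known as the laminin receptor, moved from 441 to 210 TPM (−1.14 ± 0.13, adjusted p = 8.1e-05).

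The largest fall of all members was that of Rps27l, the paralog of Rps27 that is known as a target of p53. Its counts were whole in every file. It was at 398, 318, 343, 222, 141, 141, 104, 154 and 96.9 TPM on the 9 days, with a change of −2.11 ± 0.26 (adjusted p = 0.000134). Most of that fall lay between day 6 and day 10. The other members with whole counts and large falls were Rps3 (338 to 152 TPM, −1.21 ± 0.13, adjusted p = 7.43e-05), Rpl8 (539 to 235 TPM, −1.13 ± 0.15, adjusted p = 0.000165) and Rpl23 (667 to 266 TPM, −1.08 ± 0.17, adjusted p = 0.000428). Rps3 lies at the entry of the messenger RNA channel, and Rpl23 on the face of the large subunit to which Eif6 binds.

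The smallest falls among members with whole counts were those of Rps9 (842 to 538 TPM, −0.60 ± 0.13, adjusted p = 0.00340), Rpl4 (1747 to 1093 TPM, −0.59 ± 0.12, adjusted p = 0.00198) and Rps29. Rps29 was at 1133, 951, 1086, 1037, 888, 1012, 789, 1070 and 610 TPM, with a change of −0.59 ± 0.20 (adjusted p = 0.0299). Day 16 lay among the early days, and the change did not pass without day 18 (−0.34, adjusted p = 0.145) or without day 2, 6 or 14. It also did not pass by limma on TPM (adjusted p = 0.0705) or with days 14 to 18 set against days 2 to 6 (adjusted p = 0.0948), so that the call was lost in 6 of 22 alternatives. Rpl39l was at 14.5 TPM on day 2, 17.4 TPM on day 16 and 9.44 TPM on day 18, with a change of −0.42 ± 0.31 that did not pass (adjusted p = 0.276). Without day 16 it was −0.77 (adjusted p = 0.0391). It had between 91 and 239 counts a day, the fewest of the tested members.

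Among the members that share reads, the largest falls were those of Rps2, Rpl34 and Rps12. Rps2 was at 1185, 946, 950, 683, 554, 534, 428, 538 and 398 TPM (−1.57 ± 0.17, adjusted p = 7.74e-05). It has 39 matching entries but received 98.9% of the joint counts. Rpl34 moved from 371 to 135 TPM (−1.36 ± 0.18, adjusted p = 0.000207) and Rps12 from 654 to 240 TPM (−1.29 ± 0.17, adjusted p = 0.000187). Rps24, among the most abundant members, moved from 2397 to 1112 TPM (−1.19 ± 0.13, adjusted p = 6.52e-05). Rpl5 kept the common course despite its divided reads, with a change of −0.99 ± 0.16 (adjusted p = 0.000508) and of −0.98 when the counts of its matching entries were added to it.

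Rpl10a, whose product forms the L1 stalk of the large subunit, was the only member called as rising, and it is a member that shares its reads. Its level was 1018 ± 6.97, 927 ± 17.7, 1266 ± 26.9, 1400 ± 38.7, 1289 ± 40.9, 1532 ± 52.5, 1561 ± 33.2, 1334 ± 47.6 and 1428 ± 26.8 TPM on the 9 days (SD, n = 3 lane files). Days 14 to 18 lay above days 2 to 6 without overlap, and the share of all genes with such a course was not counted. The change was 0.47 ± 0.17 (adjusted p = 0.0391), and it followed the median course of the members with a Pearson correlation of −0.63. The pseudogene Rpl10a-ps1 took nearly equal counts, and Rpl10a held between 51.6% and 57.1% of the counts of both on every day. With the counts of its matching entries added, the change was 0.38 (adjusted p = 0.0804). Over the 22 alternatives the change lay between 0.33 and 0.57 and was positive throughout, but it passed in 12 of them. Leaving out replicate number 1 or day 2, 4, 6, 12 or 14 alone ended the call. The values show that Rpl10a did not follow the fall of the family, and a rise depends on the setting.

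Rpl10 and Rps27, the most abundant members, also did not show the fall of the family. Rpl10, which joins the large subunit late in its assembly, was at 2869, 2647, 2746, 2601, 2633, 3303, 2943, 2860 and 2928 TPM. Its change was 0.02 ± 0.11 (adjusted p = 0.909), its spline fit did not pass either (adjusted p = 0.300), and its correlation with the median course was 0.04. It held between 83.1% and 87.8% of the counts of itself and Rpl10-ps1. Rps27 was at 2778, 2201, 2526, 2466, 2613, 2995, 2540, 3080 and 2245 TPM, with a change of −0.03 ± 0.17 (adjusted p = 0.908). Its correlation with the median course was 0.41. Like most members, it moved down from day 2 to 4, up from day 14 to 16 and down to day 18. It held between 75.9% (day 8) and 87.7% (day 18) of the counts of itself and Gm9846, with 80.3% on day 2. Its paralog Rps27l, with whole counts, fell by 2.11 over the same libraries.

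Of the other members that did not pass, Rpl3 (519 to 381 TPM, −0.39 ± 0.16, adjusted p = 0.0609), which reaches towards the peptidyl transferase centre, was called by the spline (adjusted p = 0.0445). Rpl17 (798 to 554 TPM, −0.36 ± 0.16, adjusted p = 0.0811) and Rpl39 (953 to 659 TPM, −0.36 ± 0.15, adjusted p = 0.0661) had negative changes of similar size. Rpl31 was at 541 TPM on day 2 and 441 TPM on day 18 (−0.22 ± 0.12, adjusted p = 0.148), and its reads were divided in nearly equal parts with Gm8759, an entry of which all 367 stretches of 50 bases were shared. Rpl3, Rpl17 and Rpl39 passed by DESeq2 and with TMM factors.

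Rpl22, chosen after its values were seen, is a case in which the scale matters. Its TPM moved from 696 on day 2 to 255 on day 18, a ratio of 2.73, while its fitted change in counts was −0.68 ± 0.15 (adjusted p = 0.00377), a fall of 1.60-fold. The effective length that RSEM averaged over its isoforms was 301, 317, 336, 350, 426, 437, 458, 428 and 450 bases over the 9 days. This length rose at each step from day 2 to day 10 and lay between 426 and 458 bases from day 10 on, and TPM divide the counts by it. Its paralog Rpl22l1, which lies outside the symbol rule, moved the other way, from 99.7 to 206 TPM with its highest level of 318 TPM on day 16 (1.15 ± 0.42, adjusted p = 0.0399). This rise was positive under all 22 alternatives and passed in 16.

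Other parts of the translation machinery are given by lists chosen with earlier results of these data known, and counts over them are descriptions, to be read against the 26.1% of all genes that fell and the 28.3% that rose. Of 40 tested genes of ribosome assembly (RNA polymerase I, nucleolar and maturation factors), 36 fell and 1 rose, with a median of −1.36. Utp20, of the complex that processes the small-subunit RNA, had the largest fall (−2.06 ± 0.17, adjusted p = 2.09e-05). Ubtf, which binds ribosomal DNA, rose by 0.29 ± 0.11 (adjusted p = 0.0435), a call that held in 8 of 22 alternatives. The assembly genes had their steepest loss early: their median deviation was 0.86 on day 2 and −0.21 on day 10, and it then moved only to −0.49 on day 18.

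Of 16 tested translation factors and partners whose messenger RNAs also carry a TOP tract, 11 fell and none rose, with a median of −0.55. Eef1d, of the exchange complex of elongation factor 1, fell most (256 to 75.3 TPM, −1.79 ± 0.17, adjusted p = 4.36e-05), while Eif3f had the highest change (0.16 ± 0.16, adjusted p = 0.430). Of 25 other initiation and elongation factors, 21 fell and 1 rose, with a median of −0.87. Eif6, which keeps the large subunit from joining the small one too early, fell most (−1.46 ± 0.18, adjusted p = 0.000118), and Eef2k, the kinase that inhibits elongation factor 2, rose (0.86 ± 0.25, adjusted p = 0.0127). All 8 tested snoRNA host RNAs of the TOP class fell, with a median of −1.61 and the largest fall in Snhg4 (−2.91 ± 0.43, adjusted p = 0.000343). The smallest was that of 1500012F01Rik (Zfas1), at −0.74 ± 0.23 (adjusted p = 0.0211).

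In the list of growth signalling and TOP control, 11 of 20 fell and 4 rose (26.1% and 28.3% of all genes). Myc, a regulator of ribosome production, moved from 61.3 to 26.5 TPM (−1.50 ± 0.17, adjusted p = 8.85e-05). Rictor, of mTOR complex 2, had the largest fall (−1.86 ± 0.21, adjusted p = 8.76e-05), and Sesn1, an inhibitor of mTOR complex 1, the largest rise (7.29 to 36.7 TPM, 2.50 ± 0.37, adjusted p = 0.000329). Ribosomal proteins of the mitochondrion, which are separate gene products, gave 35 falls and 2 rises among 76, with a median of −0.49. Mrps18b fell most (−2.06, adjusted p = 4.8e-05) and Mrps6 rose most (0.77, adjusted p = 0.0158). Among 6 ribosomal paralogs outside the symbol rule 4 fell, of which Rpl36al moved from 891 to 390 TPM (−1.35 ± 0.18, adjusted p = 0.000194). Of the 24 tested entries with ribosomal -ps symbols 7 fell and none rose, a share of falls near the 26.1% of all genes. The extremes among them, Rps27a-ps2 (−3.10 ± 1.67, adjusted p = 0.140) and Rpl3-ps1 (4.54 ± 2.49, adjusted p = 0.147), had 64 and 92 counts in all.

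**Figure D4:**
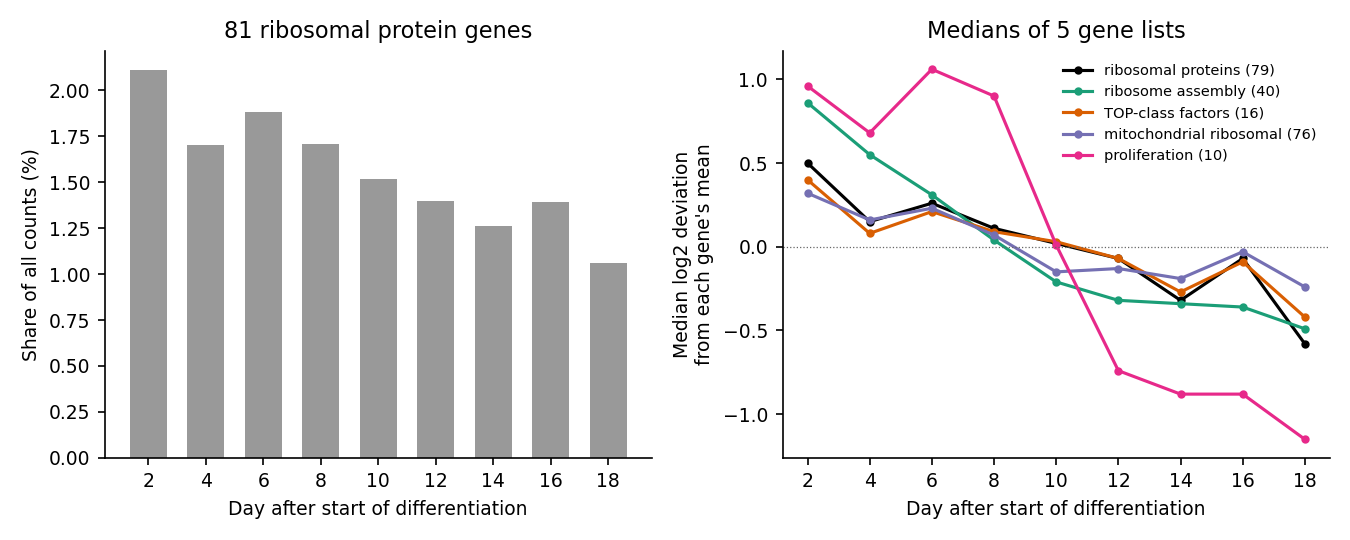
Left, share of all counts held by the 81 members (y axis, percent) by day (x axis), from 2.11% on day 2 to 1.06% on day 18. Right, median log2 deviation from each gene's own mean over the 9 days for 5 lists (number of tested genes in brackets), in which the proliferation genes lost most between days 8 and 12 and the ribosomal proteins between days 2 and 4 and after day 12.

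Markers of the cells present moved over the same days. All 10 proliferation genes fell, with a median of −2.56, a smallest fall in Pcna (−0.93) and a largest in Birc5 (−3.24), and their summed level was 568 to 659 TPM on days 2 to 6 and 183 to 216 TPM on days 14 to 18. Of 9 osteoblast markers 6 rose, led by Bglap (1.24 to 208 TPM, 11.27 ± 1.11, adjusted p = 4.75e-05), while Sp7 moved from 32.3 to 10.6 TPM without passing (adjusted p = 0.233). Col1a1 was at 1526 TPM on day 2 and 4263 TPM on day 18. Of 7 macrophage markers 6 rose, with summed levels of 24.1 to 61.7 TPM on days 2 to 6 and 522 to 2014 TPM on days 14 to 18; Emr1 rose most (7.73) and Cd14 did not pass (1.04, adjusted p = 0.129). All 5 adipocyte markers rose, from sums of 3.21 to 7.44 TPM to sums of 188 to 407 TPM, with Cfd (12.67) and Pparg (3.94) at the ends. Of the osteoclast markers Acp5 (4.36) and 2 others rose, Oscar did not pass (−0.12) and Calcr was at 0 in every file. Of the endothelial markers Tek (2.97) and Cdh5 rose, Kdr fell (−3.27 ± 1.07, adjusted p = 0.0249, passed in 17 of 21 alternatives with changes from −5.34 to −0.67), and Pecam1 was too low to be tested. The part of cell division and of the other cell types in the fall of the ribosomal protein genes was not tested.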

How the data were processed

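Gene expression was measured by RNA sequencing (NuGEN Ovation amplification, TruSeq libraries) in 27 lane files of 9 days. The expected counts deposited by the authors are RSEM estimates per gene, without normalization, and the effective length beside them is an average over isoforms. The TPM deposited by the authors divide counts by that length and scale them to the library, and the deposited FPKM relate fragments to the same length and to all aligned fragments of a file. Per the submitters' processing notes, reads were aligned with Bowtie 0.12.9 to NCBIM37 and quantified with RSEM 1.2.8 (fragment length mean 280, SD 50); the study's methods name an earlier RSEM release.

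Expected counts of the 3 lane files of a day were summed and rounded (22470195 to 62009157 per day). The study's methods speak of triplicate samples of each day, but the lane files of a day carry a single barcode and were taken as 1 sample; whether they came from separate cultures cannot be told from the files. Their counts for members with whole counts differed by about the counting noise (chi-square per degree of freedom 0.698 to 1.58, and 1.24 to 2.35 for members that share reads). The sums were fitted by edgeR 4.0.16 in R 4.3.3 with upper-quartile factors, a filter on low counts (filterByExpr, minimum 10), a straight line in day or a natural spline with 3 degrees of freedom, and an adjusted p under 0.05. Levels are TPM divided by the 75th percentile of each file and multiplied by the mean percentile. Since the day is the only planned difference between samples and there is 1 sample per day, p-values measure scatter around the curve. Tested on simulated data for the line (15659 genes), the fit recovered 7.46% of changes of 1, 92.4% of changes of 2 (log2), and 9.46% of its calls had not been changed. The simulation gave every gene the common dispersion of the line fit (0.0581), so that these rates need not hold for genes with less scatter. In the real data 71 of the 79 tested members were called as falling, at a median change of −0.85.

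Gene symbols and positions came from GENCODE M1 of NCBIM37. Shared stretches of 50 bases were counted between the members' protein-coding transcripts and other entries. Start windows came from the RefSeq table of GRCm38.p6, whose coordinates were not set against NCBIM37. The members and gene lists were chosen with earlier results of these data known. Genes were named by rule: the stalk, fusion, reference and paralog members, the 4 and 4 largest changes among members with whole counts and the 3 and 3 among those sharing reads, the 3 highest and the 3 lowest levels, the 3 smallest spline p-values among members that the line did not call, and the extremes of each list. The alternatives were TMM or no factors, factors without members and mitochondrial ribosomal RNA, no filter, DESeq2 1.42.0 and limma 3.58.1 on log2(TPM + 0.5). Others were the 27 files as samples, early against late days, and each replicate number or day left out. A further alternative, chosen after seeing the data, added counts of matching entries to the member. A member that is counted here is not reported here by name.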

Additional observations from a re-analysis of the deposited data

How the results depend on the processing

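The number of members that fell was 71 and lay between 66 and 75 under other scalings, filters, tools and samples, between 70 and 71 without one of the 3 replicate numbers, and between 65 (without day 2) and 74 (without day 4) when each day was left out. The spline called 70 members, between 59 (limma on TPM) and 78 in the alternatives, between 61 and 75 when a day was left out, and between 70 and 72 without a replicate number. The number of rising members, which was 1 (Rpl10a), was 0 with TMM factors, without factors, with every gene kept and with the counts of matching entries added, and 0 or 1 when a day or a replicate number was left out. Rpl10, whose change was 0.02, had the opposite sign with TMM factors (−0.03), without factors (−0.10), with every gene kept (−0.02), by DESeq2 (−0.02) and without replicate 2 (−0.02), and lay between −0.03 (without day 4) and 0.13 (without day 2) when a day was left out. Rps27, whose change was −0.03, was at 0.07 by limma on TPM and lay between −0.15 (without day 16) and 0.14 (without day 18) when a day was left out. Neither gene passed in any alternative, and the causes were not tested. Of 29 named members, 18 kept their direction and their side of the threshold under all 22 alternatives. Leaving out the factors moved the median change of all genes from 0.05 to −0.07, and that of the members from −0.85 to −0.97. The median ratio of day 2 to day 18 was 2.02 in normalised TPM, 2.22 in TPM as deposited and 2.29 in FPKM as deposited.

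The replicate numbers did not pair the files. Deviations from the day means correlated at 0.00566 on average between files of the same number and at −0.00283 between other files. With the 27 files as samples and the replicate block, 75 members fell, 1 rose and the spline called 78, the same counts as without a block; these fits treat lanes as samples. With a single sample per day, day and library cannot be told apart, which bears on the low values of day 4 and the high ones of day 16. The reads divided between copies limit the levels of Rpl5, Rpl10a, Rpl15, Rpl27a, Rpl31 and Rps6.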
